A study of Arabidopsis thaliana with 2 samples.

Results

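The nuclear genes for the light-harvesting proteins and subunits of photosystems I and II were followed in developing Arabidopsis seeds. They were taken by gene identifier from a fixed list of LHCA, LHCB, PSA and PSB genes, and all 42 were found among the 33602 gene models of both deposited tables. The study sequenced total RNA of seeds at the stage labelled 10 DAP from Arabidopsis thaliana carrying OLEOp:GmPSKγ1 and from a control genotype carrying OLEOp:GmPSKγ1tc. RNA of 3 individual lines was pooled within each genotype and sequenced as 1 library on an Illumina HiSeq instrument, which gave 2 libraries in all. Both genotypes carry an OLEOp construct, and the labels state neither what the suffix tc stands for nor the background line. The series title calls the first genotype PSKγ1ox, and PSK genes are known to encode precursors of phytosulfokine, a small secreted peptide hormone. With 1 library for each genotype no difference has a replicate check, no p-value was computed, and a difference between the libraries cannot be told apart from variation between lines, plants or library preparations.

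Photosystem II and photosystem I are pigment and protein complexes of the thylakoid membrane that act in series to move electrons from water to ferredoxin. Each has a core, built partly from chloroplast-encoded and partly from nuclear-encoded subunits (PSB for photosystem II, PSA for photosystem I), and an antenna of chlorophyll a/b-binding proteins (LHCB for photosystem II, LHCA for photosystem I). Developing Arabidopsis embryos are green, and seed photosynthesis is known to provide oxygen and energy cofactors while storage oil is made; seed coat layers and silique walls also hold chloroplasts.

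The deposited values are FPKM, read fragments scaled to exon length and library size, so that levels can be set side by side between genes. The smallest steps between values correspond to single reads and place the depth near 16400000 reads for GmPSKγ1 and 15300000 for the control. FPKM summed to 688097 and 691028 over all models. A gene was called measured at a mean of at least 1 FPKM over both libraries, which 17816 models reached, and log2 ratios are of (FPKM + 1) in GmPSKγ1 over the control. All 42 photosystem genes were measured, on between 41 and 86656 reads per library. Ratios given with an interval are of FPKM itself, with an exact Clopper-Pearson 95% interval from the recovered reads, which covers counting error only. Where a pair of FPKM values is given, the first is of GmPSKγ1 and the second of the control.

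Transcripts of the photosystem genes were abundant and slightly higher in GmPSKγ1 seeds. Their FPKM summed to 26998 in GmPSKγ1 and 23660 in the control, a ratio of 1.14, and made up 3.92% and 3.42% of all FPKM. Higher values in GmPSKγ1 were found for 39 of the 42 genes and lower ones for 3, against 57.9% of all measured genes higher. The median log2 ratio was 0.23, or 1.17-fold, with a 95% order-statistic interval over the genes of 0.20 to 0.31; the median of all measured genes was 0.05, with quartiles at -0.11 and 0.21. The shift was therefore broad and small, and 27 of the 42 lay above the upper quartile of all measured genes. Abundant genes lay above it more often than others: of the 899 with a mean of at least 100 FPKM, 365 did. Of the 42 photosystem genes, 39 were at that level.

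No photosystem gene reached a 2-fold difference in either direction, a size that 0.41% of measured genes reached upward and 0.819% downward. At 1.5-fold, 2 were higher, LHCA6 and LHCB1.4, and none was lower, against 3.13% and 2.68% of measured genes. Neither of these calls held with a pseudocount of 5 FPKM, after rescaling by the median ratio, or with the 50 most abundant genes left out of the scaling. At least 25% higher were 12, and none was at least 20% lower, against 13.9% and 8.19% of measured genes. The 12 became 8 after rescaling by the median ratio and 5 with the 50 most abundant genes left out of the scaling. PSAE1 was nearest inside this threshold, at 639 FPKM in GmPSKγ1 and 501 in the control. PSBY, at 393 and 314 FPKM, and PSBX, at 823 and 659 FPKM, were just outside it on the (FPKM + 1) scale. The count at 25% has to be read against abundance, because abundant genes as a class were shifted the same way. Among the 899 genes whose mean reached 100 FPKM, 24.4% were at least 25% higher and 70.9% were higher by any amount, with a median log2 ratio of 0.14. Of the 39 photosystem genes at that level, 10 were at least 25% higher, a share near that of other abundant genes, and 37 were higher by any amount.

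Counting error was small for most of the genes. Of the 42, 9 overlap another gene model (LHCA4, LHCA5, LHCB1.5, LHCB3, LHCB4.2, LHCB6, PSAE2, PSAH1 and PSBR), where reads of the neighbour may be counted in; those neighbours stood at 0 to 21.8 FPKM. For the other 33, the counting interval of the ratio lay above 1 for 30, included 1 for 3 and lay below 1 for none. Such an interval above 1 was found for 23.4% of 14636 measured genes without an overlapping model. Among the 776 of these with at least 100 FPKM it was found for 61.3%, and for 28 of the 31 photosystem genes at that level.

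**Figure D1:**
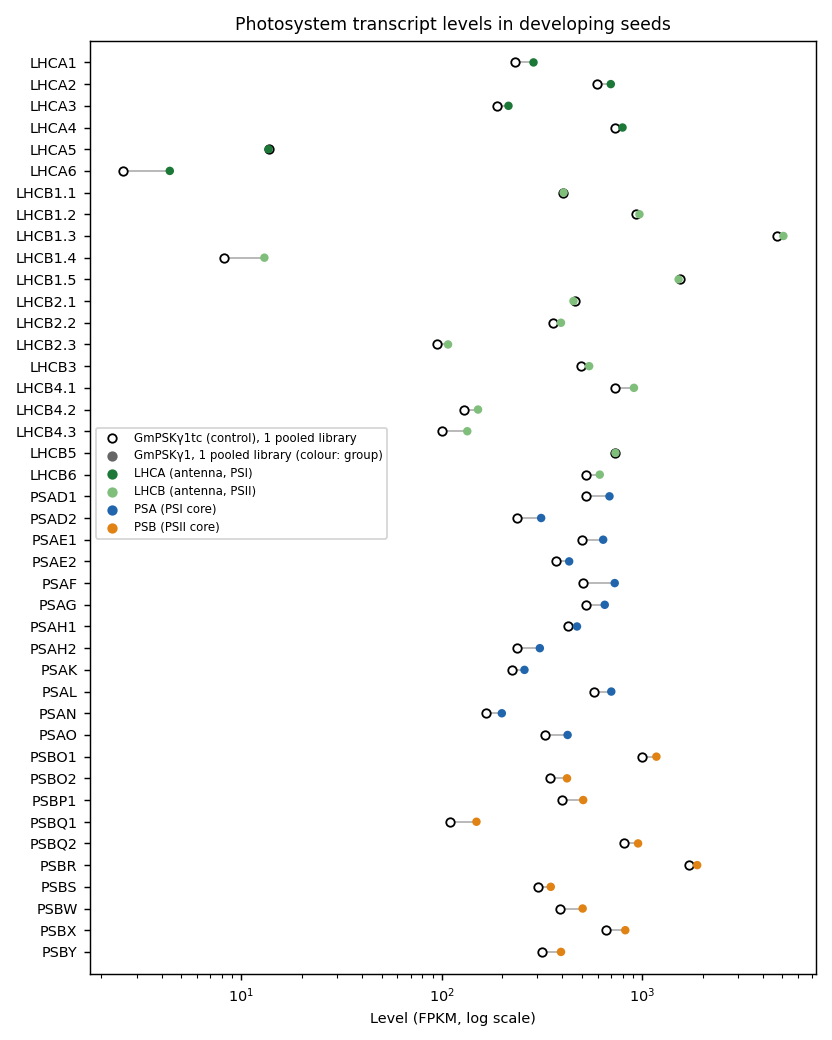
Level of each of the 42 genes in both libraries, in FPKM on a log axis, with 1 point for the GmPSKγ1 library and 1 for the GmPSKγ1tc control. Levels run from 2.57 FPKM (LHCA6 in the control) to 5065 FPKM (LHCB1.3 in GmPSKγ1), and most pairs of points lie close together.

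Core subunits of photosystem I showed the clearest shift. All 12 PSA genes were higher in GmPSKγ1, and their median log2 ratio was 0.33. At least 25% higher were 6 of them, against 24.4% of all genes with at least 100 FPKM. Summed FPKM was 5813 in GmPSKγ1 and 4629 in the control, a ratio of 1.26.

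PSAF (AT1G31330) encodes the subunit on which plastocyanin docks to hand electrons to photosystem I. It stood at 729 FPKM in GmPSKγ1 against 507 in the control, a ratio of 1.44 (1.397 to 1.48). This was the highest ratio among the 39 genes with at least 100 FPKM, at the 95.5th percentile of all measured genes. PSAD and PSAE form the ferredoxin docking side in the stroma, and each has 2 copies. PSAD1 (AT4G02770) had 686 FPKM in GmPSKγ1 and 524 in control seeds, and PSAD2 (AT1G03130) had 313 and 238. The copies had like ratios, of 1.31 (1.27 to 1.35) and 1.31 (1.26 to 1.38), and PSAD1 held 68.7% and 68.8% of the pair's FPKM. PSAE1 (AT4G28750) had 639 FPKM in GmPSKγ1 against 501 in the control, a ratio of 1.27 (1.23 to 1.32). PSAE2 (AT2G20260) had 432 and 372 FPKM, a ratio of 1.16 (1.11 to 1.21). The interval of PSAE2 lay below that of PSAE1, and PSAE2 is 1 of the 9 genes that overlap a neighbour.

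PSAH, PSAL and PSAO lie where mobile antenna of photosystem II can dock on photosystem I. PSAH1 (AT3G16140) had 473 FPKM in GmPSKγ1 and 427 in control seeds, a ratio of 1.11 (1.06 to 1.15). Its paralog PSAH2 (AT1G52230) had 308 and 238 FPKM, a ratio of 1.29 (1.23 to 1.36). The share of PSAH2 in the pair was thus 39.5% in GmPSKγ1 and 35.8% in the control, on counting intervals that do not overlap, though the PSAH1 model overlaps a neighbour. PSAO (AT1G08380) had 424 and 327 FPKM, a ratio of 1.296 (1.24 to 1.35). PSAL (AT4G12800) had 701 and 577 FPKM, a ratio of 1.22 (1.18 to 1.2499). PSAG and PSAK bind near the antenna belt, and PSAN lies on the lumen side. PSAG (AT1G55670) had 650 and 526 FPKM, PSAK (AT1G30380) 258 and 225 FPKM, and PSAN (AT5G64040) 199 and 167 FPKM in GmPSKγ1 and the control. Their ratios were 1.24, 1.15 and 1.195, so that every gene of this core had a higher value in GmPSKγ1, between 1.11-fold for PSAH1 and 1.44-fold for PSAF.

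Nuclear-encoded subunits of photosystem II were shifted by a similar amount. All 10 PSB genes were higher in GmPSKγ1, with a median log2 ratio of 0.30. At least 25% higher were 3 of them, against 24.4% of all genes with at least 100 FPKM. Summed FPKM was 7159 in GmPSKγ1 and 6054 in the control, a ratio of 1.18.

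PSBO, PSBP and PSBQ are the extrinsic lumen proteins that shield the oxygen-evolving manganese cluster, and PSBO stabilises it. PSBO1 (AT5G66570) had 1177 FPKM in GmPSKγ1 against 1003 in the control, a ratio of 1.17 (1.15 to 1.196). PSBO2 (AT3G50820) had 421 and 348 FPKM, a ratio of 1.21 (1.17 to 1.252). The intervals of the PSBO copies overlap, and PSBO1 held 73.6% and 74.3% of their FPKM. PSBP1 (AT1G06680) had 507 and 397 FPKM, a ratio of 1.28 (1.24 to 1.32). PSBQ2 (AT4G05180) had 953 and 815 FPKM, a ratio of 1.17 (1.14 to 1.198). PSBQ1 (AT4G21280) had 149 and 109 FPKM, a ratio of 1.36 (1.27 to 1.45). PSBQ1, the lesser copy, was thus the PSB gene with the highest ratio, and its interval lay above that of PSBQ2.

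PSBR (AT1G79040), a small protein that helps to bind the extrinsic subunits, was the most abundant PSB gene at 1880 FPKM in GmPSKγ1 and 1721 in control seeds. Its ratio of 1.09 (1.07 to 1.11) was the lowest among the PSB genes, and it is another gene that overlaps a neighbour. PSBW (AT2G30570), which stabilises the supercomplex of photosystem II with its antenna, had 504 and 388 FPKM, a ratio of 1.2995 (1.253 to 1.35). PSBX (AT2G06520) and PSBY (AT1G67740), small membrane subunits, had FPKM ratios of 1.2498 (1.21 to 1.29) and 1.2508 (1.21 to 1.297). PSBS (AT1G44575), the sensor that triggers heat dissipation of excess light, had 350 and 300 FPKM, a ratio of 1.16 (1.13 to 1.201). No PSB gene stood below the control.

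**Figure D2:**
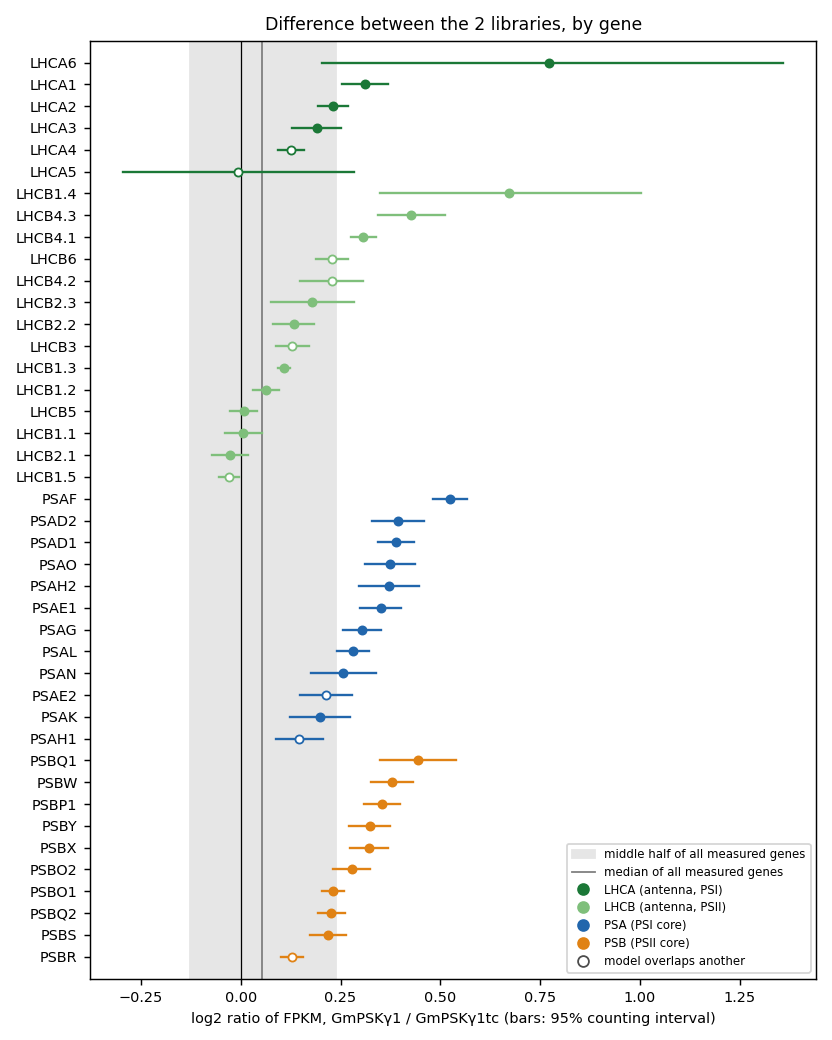
Log2 ratio of FPKM in GmPSKγ1 over the GmPSKγ1tc control for each gene, with bars for the exact 95% counting interval and shading between the quartiles of all measured genes; open points mark models that overlap another. All PSA and PSB points lie to the right of 0, whereas LHCB1.1, LHCB1.5, LHCB2.1, LHCB5 and LHCA5 lie at or near 0.

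Antenna genes of photosystem I comprised 4 abundant and 2 rare transcripts. Of the 6 LHCA genes 5 were higher, the median log2 ratio was 0.21, and FPKM summed to 2014 in GmPSKγ1 and 1760 in the control. LHCA1 to LHCA4 encode the dimers that make up the antenna belt. LHCA1 (AT3G54890) had 287 FPKM in GmPSKγ1 against 231 in the control, a ratio of 1.24 (1.19 to 1.29). Its usual dimer partner LHCA4 (AT3G47470) had 797 and 730 FPKM, a ratio of 1.09 (1.07 to 1.12). LHCA2 (AT3G61470) had 697 and 594 FPKM and its partner LHCA3 (AT1G61520) 215 and 189 FPKM, with ratios of 1.17 (1.14 to 1.21) and 1.14 (1.09 to 1.19). All 4 belt genes were higher in GmPSKγ1.

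LHCA5 and LHCA6 are minor proteins that link photosystem I to the chloroplast NADH dehydrogenase-like complex. LHCA5 (AT1G45474) had 13.7 FPKM in both libraries. LHCA6 (AT1G19150) had 4.39 FPKM in GmPSKγ1 and 2.57 in control seeds, a ratio of 1.71 (1.15 to 2.56) that rested on 75 and 41 reads. The highest ratio of FPKM among the 42 genes was therefore also the one measured on the fewest reads. A part of LHCA2 is also shared with another locus: 13.6% of its windows of 50 bases occur in AT5G28450, which was listed at 8.25 FPKM in GmPSKγ1 against 4.65 in the control, so the division of reads between these loci is uncertain.

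The LHCB antenna of photosystem II held the most abundant transcripts and the smallest shift. Of the 14 genes 12 were higher in GmPSKγ1, of which LHCB1.1, LHCB1.2 and LHCB5 were lower once the 50 most abundant genes were left out of the scaling. The median log2 ratio was 0.13 (0.01 to 0.31 over the genes), which became 0.08 (-0.05 to 0.25) after rescaling by the median ratio and 0.05 (-0.07 to 0.23) without those 50 genes. FPKM summed to 12013 in GmPSKγ1 and 11217 in the control, a ratio of 1.07. The monomeric antenna proteins CP29, CP26 and CP24, which connect the outer trimers to the core, are encoded by LHCB4, LHCB5 and LHCB6. LHCB4.1 (AT5G01530) had 909 FPKM in GmPSKγ1 and 735 in control seeds, a ratio of 1.24 (1.21 to 1.27). LHCB4.2 (AT3G08940) had 152 and 129 FPKM, a ratio of 1.17 (1.11 to 1.24). LHCB4.3 (AT2G40100) had 134 and 99.7 FPKM, a ratio of 1.34 (1.27 to 1.43). All copies of LHCB4 were higher, and their sum gave a ratio of 1.24. LHCB6 (AT1G15820) had 614 and 524 FPKM, a ratio of 1.17 (1.14 to 1.204). LHCB5 (AT4G10340) had 735 and 731 FPKM, a ratio of 1.01 (0.982 to 1.03). LHCB5 differed from its neighbours in the complex in that its interval included 1. LHCB3 (AT5G54270), a minor subunit of the trimers, had 543 and 497 FPKM, a ratio of 1.09 (1.06 to 1.13).

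LHCB1 and LHCB2 form most of the trimeric antenna, LHCII. The 8 genes had a median log2 ratio of 0.09. The LHCB1 sum was 7971 FPKM in GmPSKγ1 against 7585 in the control, a ratio of 1.05 that became 0.993 when the 50 most abundant genes were left out of the scaling. The LHCB2 sum was 954 and 915 FPKM, a ratio of 1.04 that became 0.985 under the same scaling, so that neither family had a direction that held under every scaling tried. LHCB1.3 (AT1G29930) ranked 12th of all models in GmPSKγ1 and 13th in the control, at 5065 and 4697 FPKM, a ratio of 1.08 (1.07 to 1.09). LHCB1.5 (AT2G34420) had 1519 and 1549 FPKM, a ratio of 0.981 (0.964 to 0.998). LHCB1.2 (AT1G29910) had 969 and 927 FPKM, a ratio of 1.05 (1.02 to 1.07). LHCB1.1 (AT1G29920) had 405 and 403 FPKM, a ratio of 1.005 (0.973 to 1.04). LHCB1.4 (AT2G34430) stood apart from these 4, at 13.0 FPKM in GmPSKγ1 and 8.16 in control seeds, a ratio of 1.59 (1.27 to 2.002) on 215 and 126 reads.

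In LHCB2, LHCB2.1 (AT2G05100) had 454 FPKM in GmPSKγ1 against 462 in the control, a ratio of 0.982 (0.952 to 1.01). LHCB2.2 (AT2G05070) had 393 and 359 FPKM, a ratio of 1.096 (1.06 to 1.14). LHCB2.3 (AT3G27690) had 107 and 94.9 FPKM, a ratio of 1.13 (1.05 to 1.22). Ratios below 1 among all 42 genes were those of LHCA5, LHCB1.5 and LHCB2.1, the lowest at 0.981, and all of them belong to antenna genes.

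**Figure D3:**
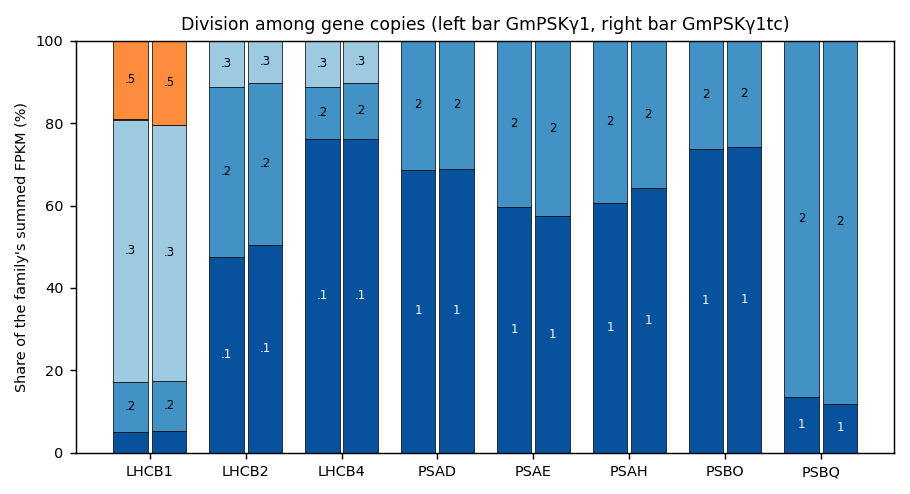
Share of each copy in the summed FPKM of its family in both libraries, for the 8 families with more than 1 copy; slices of LHCB1.1 (5.08% and 5.32%) and LHCB1.4 (0.163% and 0.108%) are too thin to carry a name. LHCB1.3 held 63.5% of LHCB1 in GmPSKγ1 and 61.9% in the control, and no family changed its leading copy.

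How reads were assigned matters most for the LHCB1 and LHCB2 copies, because their sequences are nearly alike. The 5 LHCB1 genes lie in 2 clusters in the TAIR10 models. On chromosome 1, LHCB1.2 (10472280 to 10473299), LHCB1.1 (10474784 to 10475959) and LHCB1.3 (10478005 to 10479048) are separated by 1484 and 2045 bases. On chromosome 2, LHCB1.5 (14522524 to 14523568) and LHCB1.4 (14524756 to 14525763) face away from each other across 1187 bases. All 5 are single-exon genes in the RefSeq annotation. The coding sequences within the chromosome 1 cluster were 95.6% to 96.4% identical, and the proteins of LHCB1.1 and LHCB1.2 were 100% identical. The starts of the 5 coding sequences, 120 aligned bases of LHCB1.3 and what matches them in the other copies, are shown as an example of the differences, spread over the genes, by which reads of these copies can be told apart. Capitals mark bases that differ from LHCB1.3, of which there were 6 in LHCB1.2, 7 in LHCB1.1, 15 beside 6 missing bases in LHCB1.5, and 24 beside 3 missing bases in LHCB1.4. Sequences and coordinates are from the RefSeq genome TAIR10.1, 5′ to 3′ on the coding strand.
LHCB1.3, chr1:10478071-10478190 on the plus strand: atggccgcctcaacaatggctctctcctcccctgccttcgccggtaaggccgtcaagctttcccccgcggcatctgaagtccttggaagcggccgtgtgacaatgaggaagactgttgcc
LHCB1.2, chr1:10473127-10473246 on the minus strand: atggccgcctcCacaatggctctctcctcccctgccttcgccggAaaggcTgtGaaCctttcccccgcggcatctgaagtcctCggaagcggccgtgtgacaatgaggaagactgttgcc
LHCB1.1, chr1:10475773-10475892 on the minus strand: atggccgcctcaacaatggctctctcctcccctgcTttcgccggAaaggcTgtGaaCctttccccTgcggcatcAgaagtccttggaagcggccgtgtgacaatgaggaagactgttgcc
LHCB1.5, chr2:14523400-14523513 on the minus strand: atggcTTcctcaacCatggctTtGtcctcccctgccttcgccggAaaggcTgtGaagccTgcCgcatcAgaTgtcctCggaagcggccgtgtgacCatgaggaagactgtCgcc
LHCB1.4, chr2:14524818-14524934 on the plus strand: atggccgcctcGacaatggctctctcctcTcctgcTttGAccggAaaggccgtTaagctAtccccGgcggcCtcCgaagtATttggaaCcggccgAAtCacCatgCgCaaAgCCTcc
Of all windows of 50 bases in each copy, between 12.9% (LHCB1.2) and 23.0% (LHCB1.1) also occur elsewhere in the nuclear genome, in other LHCB1 copies. For LHCB2.1 and LHCB2.2, whose coding sequences were 96.6% identical, the shares were 30.7% and 31.9%, whereas LHCB2.3 had none. No source used here gives the read length or the treatment of reads with several matches, so the division of FPKM among these copies is uncertain and the family sums are the firmer values. LHCB1.4 is a case in point: it shares windows with LHCB1.1, LHCB1.2 and LHCB1.5, which are all far more abundant, and what part of its 13.0 and 8.16 FPKM came from them was not tested.

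Set side by side, the core and the antenna differed in the size of the shift. The 22 PSA and PSB genes had a median log2 ratio of 0.31, all 22 higher and 9 by at least 25%, with a summed FPKM ratio of 1.21. The 20 LHCA and LHCB genes had a median of 0.15, with 17 higher and 3 by at least 25%, and a ratio of 1.08. For comparison, 13.9% of all measured genes and 24.4% of those with at least 100 FPKM were at least 25% higher. Within the antenna, the 8 LHCB1 and LHCB2 genes had a median of 0.09 and a summed ratio of 1.05. The 6 other LHCB genes had 0.23 and 1.14, and the 6 LHCA genes 0.21 and 1.14. The smallest shift was thus that of LHCB1 and LHCB2, copies among which the division of reads is uncertain. By complex, the 18 genes of photosystem I had a median of 0.29 and the 24 of photosystem II 0.23. These are descriptions of 2 libraries, and the difference between core and antenna was not tested. Across the 42 genes the log2 ratio was lower at higher mean log2 FPKM, with Pearson's r of -0.42 and Spearman's rho of -0.34. These points share both libraries and are not independent, and the least abundant genes, LHCA6 and LHCB1.4, have the highest ratios.

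**Figure D4:**
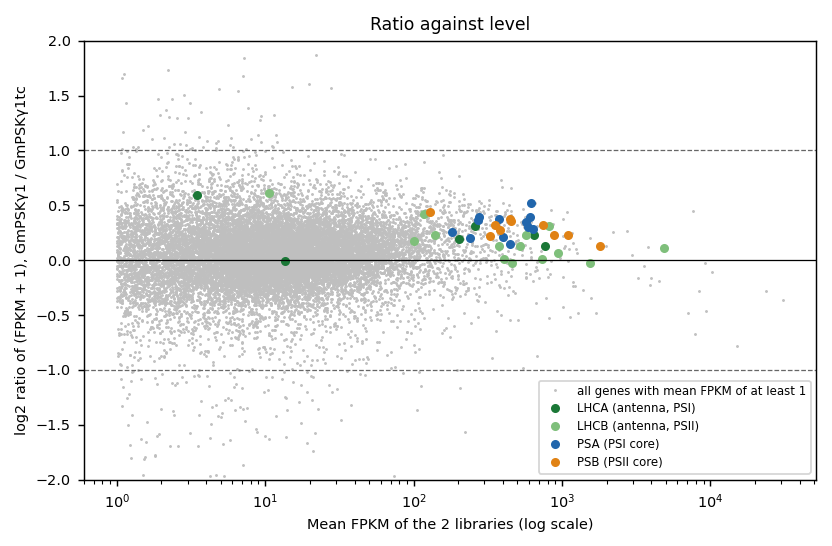
Log2 ratio of (FPKM + 1) against the mean FPKM of the 2 libraries on a log axis, for all measured genes (grey) and the 42 photosystem genes (coloured by group); dashed lines mark 2-fold, and 40 genes beyond a log2 ratio of 2 in either direction lie outside the axis. Nearly all photosystem genes lie at 100 FPKM or more and above 0, inside the range of other genes of like abundance.

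The 300 bases before the start of each deposited model were searched for short motifs known from light-regulated plant promoters. The G-box CACGTG is bound by bZIP and bHLH factors such as HY5 and the PIFs, and the I-box GATAAG is a GATA-type element of photosynthesis genes. Motifs were searched on both strands and separately, so that matches of different motifs may overlap, and CACGTG reads alike on both strands. G-boxes were found before 17 of the 42 genes (40.5%), against 8.46% of 26711 nuclear models and 10.5% of the measured ones. They were found before 7 of the 10 PSB genes, including every PSBO, PSBP and PSBQ gene. I-boxes were found before 21 (50%), 8 of them PSA genes, against 15.02% of all models. The sequence CCAATC, which holds a CCAAT box, was found before 20 (47.6%), 9 of them LHCB genes, against 12.9%. The CCA1-binding sequence (AAAAATCT or AACAATCT) was found before 9 (21.4%), against 10.1%, and the evening element AAAATATCT before 1, against 2.84%. The TATA sequence TATAAA, searched on the gene's own strand, was found before 15 (35.7%), against 38.6%.

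The G-box sites of the PSAH pair and of the oxygen-evolving subunits are shown as runs of 30 bases, since every gene with 2 such sites is among them; capitals mark the G-box. Both PSAH copies have 2 G-boxes at like distances, and the bases around them are partly shared between the copies. Sequences are from RefSeq TAIR10.1, 5′ to 3′ on the gene's strand.
PSAH1, 95 bases before the start, chr3:5469559-5469588 on the minus strand: cctactagattcCACGTGgcattttccaag
PSAH2, 105 bases before the start, chr1:19454719-19454748 on the plus strand: ctttttataatcCACGTGgcatttcctaag
PSAH1, 42 bases before the start, chr3:5469506-5469535 on the minus strand: gaaatcagttgcCACGTGtcagaagaagat
PSAH2, 50 bases before the start, chr1:19454774-19454803 on the plus strand: aacccaattcgcCACGTGgcagaacaagat
PSBP1, 84 bases before the start, chr1:2047729-2047758 on the plus strand: aagcgtatctgcCACGTGgcacaatacaac
PSBO1, 78 bases before the start, chr5:26568563-26568592 on the plus strand: ttcagatttcgaCACGTGgcaacaaaaaaa
PSBO2, 49 bases before the start, chr3:18892458-18892487 on the minus strand: atcagctttagaCACGTGgctattgatcga
PSBQ1, 133 bases before the start, chr4:11334257-11334286 on the plus strand: aaataatcttgcCACGTGgctttaaggcgg
PSBQ1, 105 bases before the start, chr4:11334285-11334314 on the plus strand: ggacaaaaatgaCACGTGgttttatatgag
PSBQ2, 145 bases before the start, chr4:2673371-2673400 on the minus strand: acgtcattcagcCACGTGacaatcgcattc
PSBQ2, 77 bases before the start, chr4:2673303-2673332 on the minus strand: gaatcaagaaacCACGTGtcaacatattag
PSAF, the abundant gene with the highest ratio, has no G-box in this window but has 4 I-boxes, more than any of the other 41 genes. Of the abundant genes next in ratio, PSBQ1 has 1 I-box and LHCB4.3 has no I-box. Capitals mark GATAAG or, where the match is on the other strand, CTTATC.
PSAF, 170 bases before the start, chr1:11216190-11216219 on the minus strand: aaataaataaaaGATAAGtcgtgtgtagtc
PSAF, 99 bases before the start, chr1:11216119-11216148 on the minus strand: gcggcaaaatctCTTATCcagtgacatgtt
PSAF, 80 bases before the start, chr1:11216100-11216129 on the minus strand: agtgacatgttaCTTATCaaccaatcacaa
PSAF, 31 bases before the start, chr1:11216051-11216080 on the minus strand: aagaccacttctCTTATCttcctctccctc
The median log2 ratio was 0.23 for the 17 genes with a G-box and 0.23 for the 25 without. For the I-box it was 0.31 for the 21 with and 0.19 for the 21 without. I-boxes were found before 8 of 12 PSA genes but 6 of 14 LHCB genes, groups that also differed in ratio. G-boxes were found before 7 of 10 PSB genes but 3 of 14 LHCB genes, and these groups differed in ratio too. Medians with and without were 0.23 and 0.27 for CCAATC, 0.26 and 0.23 for the CCA1 sequence, and 0.30 and 0.23 for TATAAA. A link between any motif and the ratio was not tested. A match describes the letters in this window and does not show that a factor binds there.

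Genes that make chlorophyll, which the antenna proteins need to fold, were shifted much like the photosystem genes. Of 26 genes 25 were measured, of which 21 were higher in GmPSKγ1 and 9 by at least 25%, with a median log2 ratio of 0.26. Over all measured genes, 57.9% were higher and 13.9% by at least 25%. PORB (AT4G27440), the light-dependent protochlorophyllide oxidoreductase, had 182 FPKM in GmPSKγ1 and 125 in control seeds, a ratio of 1.45 (1.39 to 1.52). GSA2 (AT3G48730), an early enzyme that forms aminolevulinate, had 44.4 and 30.8 FPKM, and CHLI2 (AT5G45930), a magnesium chelatase subunit, 10.5 and 6.90 FPKM. CRD1 (AT3G56940), a cyclase subunit and the most abundant gene of the list, had 358 and 310 FPKM. Those that were lower were HEMA2, CHLG, CAO and FLU, of which FLU, a negative regulator of the pathway, had 17.4 and 21.3 FPKM. Genes of chlorophyll breakdown also had higher values in GmPSKγ1, 9 of 9 with a median of 0.15, so synthesis and breakdown did not stand on opposite sides. RCCR (AT4G37000), a reductase of red chlorophyll catabolite, had 92.0 and 71.6 FPKM.

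Nuclear genes for electron transport and the chloroplast ATP synthase had a median log2 ratio of 0.18. Over all measured genes 57.9% were higher and 13.9% by at least 25%, and over those with at least 100 FPKM 70.9% and 24.4%. Many genes of this list are at the latter level. Of the 17, 14 were higher and 3 by at least 25%. Those 3 were PETE2 (AT1G20340), the main plastocyanin, at 632 FPKM in GmPSKγ1 against 457 in the control, FD2 (AT1G60950), the main leaf ferredoxin, at 409 and 308 FPKM, and CURT1B (AT2G46820), a protein that bends grana margins, at 191 and 145 FPKM. PETE2 and PSAF, the carrier and its docking subunit, thus had ratios of 1.38 (1.34 to 1.43) and 1.44. Genes listed for photosystem assembly and repair had a median of 0.23. Higher were 21 of 25, and 5 by at least 25%, against 57.9% and 13.9% of all measured genes. Among them PSA2 (AT2G34860), a factor for photosystem I assembly, had 28.9 and 21.0 FPKM, and Y3IP1 (AT5G44650), another such factor, 47.9 and 35.0 FPKM. PAM68 (AT4G19100), a photosystem II assembly factor whose model overlaps another, had 15.2 and 9.56 FPKM. PSBTN (AT3G21055), a small photosystem II protein and the most abundant of the list, had 914 and 781 FPKM. In the nuclear part of the NADH dehydrogenase-like complex, 11 of 14 genes were measured, 8 of them higher, with a median of 0.18. PNSB3 (AT3G16250), one of its subunits, had 9.90 and 5.34 FPKM, but its model overlaps another.

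Regulators of photosynthesis genes had no common direction. Of 21 genes 20 were measured, 7 higher and 13 lower, with a median log2 ratio of -0.03, against 57.9% of all measured genes higher. GLK1 (AT2G20570), a transcription factor known to drive antenna and chlorophyll genes, was the one with the highest ratio, at 17.2 FPKM in GmPSKγ1 and 9.76 in control seeds, or 1.76 (1.51 to 2.06). Its paralog GLK2 stood at 13.7 and 15.4 FPKM, a ratio of 0.889 (0.765 to 1.03). HYH (AT3G17609), a homolog of HY5, had 2.89 and 5.40 FPKM, a ratio of 0.536 (0.343 to 0.825), and HY5 itself had 17.9 and 22.4 FPKM. The light-harvesting-like genes, whose products are mostly induced by light stress, went both ways. Higher were 5 of 8, a share near the 57.9% of all measured genes. The median of the 8 was 0.11 (-0.71 to 0.68 over the genes). ELIP1 (AT3G22840) had 6.35 and 11.0 FPKM, and SEP1 (AT4G34190) 36.3 and 22.3 FPKM. GLK2 and HY5 were named after their values were seen, as partners of GLK1 and HYH, and so were the lower chlorophyll synthesis genes.

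The chloroplast genes with PSA and PSB names were barely sampled. Their 20 models summed to 66.6 FPKM in GmPSKγ1 against 40.4 in the control, from 626 and 345 reads. The 42 nuclear genes summed to 26998 and 23660 FPKM. Of the 20 chloroplast models 18 were measured, 16 of them higher, against 57.9% of all measured genes. The median log2 ratio of the 18 was 0.49, which became 0.23 with a pseudocount of 5 FPKM. Even the most abundant, PSAJ, at 11.8 and 9.68 FPKM, rested on 26 and 20 reads. PSBN was listed at 0 in both libraries, and PSAC at 2.23 FPKM in GmPSKγ1 and 0 in control seeds. The labels do not say how messenger RNA was selected, and chloroplast transcripts mostly lack long poly(A) tails, so these levels do not compare with the nuclear ones.

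**Figure D5:**
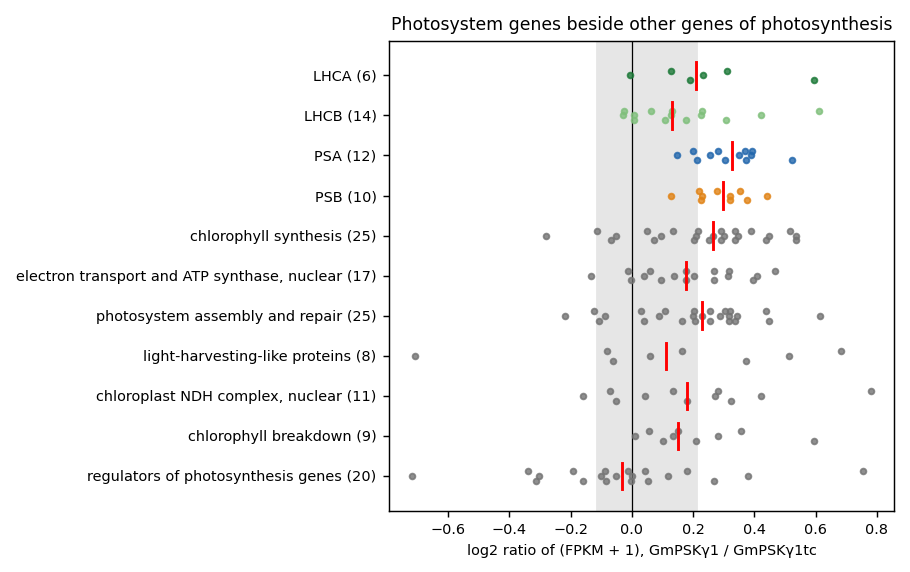
Log2 ratio of (FPKM + 1) of every measured gene in the 4 photosystem gene groups and the lists of related nuclear genes. Red marks show medians, and shading lies between the quartiles of all measured genes. The chloroplast genes with PSA and PSB names and the tissue markers are not drawn. The PSA and PSB medians (0.33 and 0.30) lie above the shading, and the median of the regulators (-0.03) lies within it.

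Markers of seed parts and of tissue that could have come along were set beside these results. In a bulk sample, fewer cells of a type and less RNA per cell cannot be told apart. As to the labelled tissue, embryo markers were present, 9 of 10 measured, with summed FPKM of 447 in GmPSKγ1 and 436 in the control and a median log2 ratio of -0.03. FUS3 (AT3G26790), a regulator of embryo maturation, led them at 249 and 235 FPKM, and WOX2 had a mean below 1 FPKM. Single embryo markers went both ways: WOX8 had a ratio of 1.46 (1.003 to 2.14), LEC2 of 1.39 (1.01 to 1.92) and LEC1, chosen after its values were seen, of 1.26 (1.06 to 1.51), whereas CUC1 had 0.779 (0.607 to 0.999). The embryo median turned to 0.03 with no minimum level and to 0.03 after rescaling to a sum of 1000000. Of seed coat markers 8 of 9 were measured, summing to 950 and 1010 FPKM, with a median of -0.06. TT10 (AT5G48100), a laccase that oxidises seed coat flavonoids, had 597 and 682 FPKM. Without their most abundant marker the seed coat list summed to 353 and 328 FPKM and the embryo list to 198 and 200.3 FPKM, so both sums turn on 1 gene. Endosperm markers were mostly at or near 0: 3 of 8 were measured, the sums were 12.9 and 14.6 FPKM, and IKU2 and MINI3 were at 0 in both libraries. None of the seed compartments had a list median as high as that of the photosystem genes, 0.23. Order-statistic intervals over the genes ran from -0.13 to 0.38 for embryo markers and from -0.31 to 0.36 for seed coat markers. Both include 0.23, and the endosperm list had no interval, so these short lists cannot separate their medians from that of the photosystem genes. The part of the seed compartments in the shift was not tested.

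Of silique wall markers 4 of 7 were measured, summing to 134 and 146 FPKM, and SHP2, which seed tissue also expresses, made up 105 and 121 FPKM of these; IND and CRC were at 0 in the control. Guard cell and leaf markers summed to 55.4 and 74.0 FPKM, with 3 of 6 measured, and MYB60 (AT1G08810) made up 49.96 and 68.8 FPKM of these. Of vascular markers 2 of 5 were measured, summing to 117 and 109 FPKM, nearly all from the sugar carrier SUC2, and SEOR1 was at 0 in both. Pollen markers summed to 6.46 and 8.16 FPKM, with 2 of 3 measured. The silique wall and the guard cell and leaf sums were lower in GmPSKγ1 through 1 gene each. Without SHP2, a sum taken after the values were seen, the silique wall markers came to 29.3 and 25.1 FPKM, and their median log2 ratio over all measured ones was 0.10. ALC (AT5G67110), a regulator of fruit opening, had 3.35 and 1.79 FPKM, a ratio of 1.87 (1.16 to 3.08), and SHP1 (AT3G58780), whose model overlaps another, a ratio of 1.203 (1.04 to 1.39). Without MYB60 the guard cell and leaf markers came to 5.46 and 5.23 FPKM. The part of these tissues in the higher photosystem values was not tested.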

How the data were processed

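Both tables hold FPKM values per gene model that the authors deposited, 1 library for each genotype. The genome build TAIR10 and the aligner Bowtie 0.12.2 were used, per the submitters' processing notes; the program that computed FPKM, the read length, strandedness and the handling of reads with several matches were not given in sources used here. Here the log2 ratio of (FPKM + 1) was taken over models with a mean of at least 1 FPKM, with a 2-fold, a 1.5-fold and a 25% higher level (20% when lower) as thresholds of size. Reads were recovered from FPKM times exon length. The step of 1 read was fitted on single-exon models without overlap whose ends equal those of RefSeq. It was chosen to give the most whole multiples. Of these models' values below 200 reads (659 in GmPSKγ1 and 650 in the control), 99.5% in both libraries were whole multiples within 0.05. A step not fitted to the values would give 10%. Exon lengths came from RefSeq TAIR10.1, whose ends equal those of the deposited models for 10599 models but only 3 of the 42 genes, so reads and counting intervals are approximate. All 42 coding sequences lie inside the deposited models. Names of the 20 chloroplast models were matched by position. The search for the read step and the log2 ratio were checked on simulated data with 2-fold changes. The counting intervals, list summaries, rescalings and sequence searches were not checked in this way. Python 3.11.15, pandas 2.3.3, numpy 2.4.6, scipy 1.17.1 and matplotlib 3.10.9 were used. The 42 genes, the 8 lists of related genes, the 7 marker lists and the folds were chosen with earlier results of these data known. Every one of the 42 genes could be named; of each other list, the 3 measured genes with the largest absolute log2 ratio and the most abundant one. Alternatives were other pseudocounts (0.1 and 5 FPKM), other minimum levels (none and 5 FPKM), and rescaling to a sum of 1000000, by the median ratio, or with the 50 most abundant genes left out. Leaving out overlapping models, marker sums without the most abundant marker, and the comparison with genes of at least 100 FPKM were added after seeing the data.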

Additional observations from a re-analysis of the deposited data

How the results depend on the processing

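The direction of the summed and median shift held under every alternative tried, but its size depended on scaling. The summed FPKM ratio of 1.14 became 1.1004 after rescaling by the median ratio and 1.08 without the 50 most abundant genes, 6 of which are photosystem genes; over the 33 genes without overlapping models it was 1.16. The median log2 ratio of 0.23 became 0.18 and 0.15 under these rescalings, which moved the median of all genes from 0.05 to -0.00 and -0.03. Genes higher and lower numbered 39 and 3 as deposited, 37 and 5 by the median ratio, and 36 and 6 without the 50 most abundant genes, where LHCB1.2 turned to a log2 ratio of -0.0179 and all of the lower genes were antenna genes. The 2 genes at least 1.5-fold higher became 0 with a pseudocount of 5 FPKM, 1 with a minimum of 5 FPKM, 0 by the median ratio and 0 without the 50 most abundant genes. The 12 at least 25% higher became 5 without the 50 most abundant genes. No paired analysis was possible because each genotype has 1 library. For LHCA6, depth limits the value: its ratio rests on 75 and 41 reads.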
